A study of Homo sapiens with 6 samples.

Results

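The clustered histone genes are the rows of the deposited count table whose symbol begins with HIST1, HIST2, HIST3 or HIST4 followed by H1, H2A, H2B, H3 or H4, leaving out symbols that end as named pseudogenes. The rule used the names alone and gave 58 of the 34811 genes in the table, 46 of them in the HIST1 cluster, 8 in HIST2, 3 in HIST3 and 1 named HIST4H4. RNA-seq compared OV3/COX1KD cells, which carry an shRNA targeting COX-1, with OV3/SCR cells, which carry a scrambled shRNA in the pRS plasmid. Both were stable, puromycin-selected clones of OVCAR-3, an established human ovarian carcinoma cell line, grown in the same RPMI medium with serum. Each condition was 1 clone sampled at 3 independent passages, so an effect of the knockdown and a difference between clones cannot be told apart, and p-values measure the spread between passages of a clone.

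The histone proteins wrap DNA into nucleosomes. H3 with H4 and H2A with H2B form the core, and linker histone H1 binds where the DNA enters and leaves it. Most clustered histone genes are copied in S phase, lack introns, and give mRNAs that end in a conserved stem-loop bound by the protein SLBP, in place of a poly(A) tail. Some of them also give polyadenylated transcripts, which become more prominent in cells that have left the cycle. The TruSeq RNA kit named in the labels selects poly(A) RNA in its usual use, so the levels below are those of the RNA that this preparation recovered. Counts on a histone gene in bulk RNA cannot tell more RNA per cell from a different share of cells in S phase.

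The members share the mRNA signal shown first. A stem-loop with 6 stem bases on each side of 4 loop bases was searched for after the stop codon, and 54 of the 56 members with a gene model in GENCODE release 44 on GRCh37 held one, all but the pseudogenes HIST2H2BC and HIST2H2BD. The stem is in capitals, the loop in lower case, and substitutions are counted from the 5′ end of the first sequence.
Most common form, 30 members, among them HIST1H1C, HIST1H2AC and HIST2H2BE: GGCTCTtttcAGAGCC
Loop form C10A, 9 members, among them HIST1H2BC and HIST1H2BK: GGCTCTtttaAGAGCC
H4 form T4C and A13G, 8 members: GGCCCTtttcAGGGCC
HIST1H2AG, A13G alone: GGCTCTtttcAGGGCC
The T4C and A13G changes of the H4 form lie at facing positions of the stem, whereas HIST1H2AG carried A13G without its partner. In members with the first form the stem-loop lay 24 to 68 bases past the stop codon.

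H2A and H2B genes often lie head to head and share a short promoter. The starts of 10 such pairs of members were less than 500 bases apart, with 169 to 250 bases between them. The windows of the pairs that hold a called member are given on the plus strand of GRCh37, with 3 promoter motifs in capitals, searched on either strand with overlaps allowed. The motifs were CCAAT, the site of NF-Y, the octamer ATTTGCAT, bound by the POU factor OCT1, and the TATA box letters TATAAA. In each window the first-named gene runs to the left and the second to the right.
HIST1H2BG and HIST1H2AE, chr6:26216917-26217148: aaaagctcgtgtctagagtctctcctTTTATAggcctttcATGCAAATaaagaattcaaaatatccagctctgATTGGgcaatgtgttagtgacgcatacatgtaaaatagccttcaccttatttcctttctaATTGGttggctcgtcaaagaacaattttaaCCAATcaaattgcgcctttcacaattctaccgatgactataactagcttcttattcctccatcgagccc
HIST1H2BC and HIST1H2AC, chr6:26124155-26124372: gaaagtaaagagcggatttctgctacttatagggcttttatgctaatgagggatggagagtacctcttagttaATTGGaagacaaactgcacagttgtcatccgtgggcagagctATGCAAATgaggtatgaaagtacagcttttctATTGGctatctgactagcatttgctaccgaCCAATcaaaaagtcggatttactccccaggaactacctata
HIST2H2BE and HIST2H2AC, chr1:149858233-149858467: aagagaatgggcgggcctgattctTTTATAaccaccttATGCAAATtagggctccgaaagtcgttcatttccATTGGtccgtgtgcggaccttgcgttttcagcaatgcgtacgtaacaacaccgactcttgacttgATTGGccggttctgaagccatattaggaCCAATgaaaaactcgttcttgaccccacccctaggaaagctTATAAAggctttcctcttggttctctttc
HIST1H2BJ and HIST1H2AG, chr6:27100575-27100821: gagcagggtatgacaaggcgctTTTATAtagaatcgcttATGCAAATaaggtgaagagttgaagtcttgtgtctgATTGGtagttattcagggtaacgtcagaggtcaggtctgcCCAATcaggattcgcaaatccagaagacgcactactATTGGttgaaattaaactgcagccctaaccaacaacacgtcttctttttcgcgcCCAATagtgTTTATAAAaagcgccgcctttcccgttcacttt
HIST1H2BK and HIST1H2AH, chr6:27114635-27114884: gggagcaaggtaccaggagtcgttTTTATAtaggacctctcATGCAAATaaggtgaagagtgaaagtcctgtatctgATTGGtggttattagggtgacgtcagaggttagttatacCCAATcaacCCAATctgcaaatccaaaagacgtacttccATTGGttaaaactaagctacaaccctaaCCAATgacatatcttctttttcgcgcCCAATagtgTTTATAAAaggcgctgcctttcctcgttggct
HIST1H1C has no such partner, and its 250 bases before the start (chr6:26056699-26056948, minus strand, read 5′ to 3′) held 1 CCAAT.
HIST1H1C: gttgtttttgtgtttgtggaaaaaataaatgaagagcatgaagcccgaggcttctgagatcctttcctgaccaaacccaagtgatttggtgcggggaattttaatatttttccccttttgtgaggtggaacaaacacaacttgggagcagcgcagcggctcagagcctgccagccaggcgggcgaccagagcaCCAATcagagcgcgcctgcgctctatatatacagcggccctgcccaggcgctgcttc
Each of the 5 paired windows held 1 octamer and 3 to 6 CCAAT. Of all 10 pair windows, with or without a called member, 10 held CCAAT and 7 an octamer. HIST1H2BG has no entry in the GENCODE models used here, and its start was placed by an exact match of its RefSeq promoter to this genome. In the RefSeq promoters of GRCh38.p14 (300 bases each, 52 members matched) the octamer was found in 12 of 16 H2B and 9 of 13 H2A genes, in 1 of 9 H3 genes and in 0 of 6 H1 and 0 of 8 H4 genes, against 2.19% of 27305 genes. CCAAT was found in all 44 matched H1, H2A, H2B and H3 genes and in 1 of 8 H4 genes, against 39.7% of all genes, and the TATA letters in 67.3% of members against 14% of all genes. A match describes the letters in the window and not a bound site.

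Between 25291505 and 27391538 reads were counted per library, and 3 counts, the smallest level taken as detectable, correspond to 0.113 to 0.120 CPM, that is, reads of a gene per fixed number of counted reads after TMM scaling in edgeR. Floors cover counting error only, since PCR copies are not independent molecules. PTGS1, the COX-1 gene, had 713, 658 and 641 counts in OV3/SCR and 456, 486 and 501 in OV3/COX1KD, 73.3% of the control level (edgeR FDR = 1.3e-06). All 7 epithelial and ovarian carcinoma markers checked passed the filter, with a summed level of 4490 to 4520 CPM in OV3/SCR and 5700 to 5870 CPM in OV3/COX1KD. They did not move together: 5 were higher, among them MUC16 (log2 fold change 1.36) and KRT8 (0.65), and 2 were lower, PAX8 (-0.76) and KRT7 (-0.14). The leukocyte marker PTPRC had 2 to 8 counts per library and the fibroblast markers DCN and LUM 7 to 16 and 0 or 1, no endothelial marker was analysed here, and the summed level of these 3 genes was 0.563 to 0.89 CPM in OV3/SCR and 0.563 to 0.678 CPM in OV3/COX1KD.

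Clustered histone genes were a small part of the libraries. Their sum was higher in OV3/COX1KD, as were the sums of the H1, H2A and H2B genes. The sums of the H3 and H4 genes overlapped between the groups, and within H4 the estimate of HIST4H4 was opposite to those of HIST1H4H and HIST1H4E. The summed counts of all members were 2546, 2421 and 2544 in OV3/SCR and 3184, 3277 and 3462 in OV3/COX1KD. This was 95.6 ± 2.75 CPM (SD, n = 3) in OV3/SCR and 129 ± 2.26 CPM (SD, n = 3) in OV3/COX1KD, a 1.35-fold difference, and the libraries of the groups did not overlap. The sum rested on few genes. HIST1H2BK, an H2B gene, took 30.8% of all member counts, and HIST1H2BK, HIST1H1C, HIST2H2BE and HIST1H2AC together took 70.8%. No test was made on the sum, since its members were chosen with results of these data known.

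Of the 58 members, 23 passed edgeR's filter on low counts (filterByExpr) and were tested with all other genes. At an FDR under 0.01 in edgeR's quasi-likelihood test 7 were higher in OV3/COX1KD, 30.4% of those tested, where 25.8% of all 17309 genes tested were higher. With a log2 fold change above 0.5 in addition, 5 members (21.7%) were higher, against 9.87% of all genes. With a fold change above 2.5, the limit used for the study's gene lists, 1 member, HIST1H2BG, was higher, against 1.58% of all genes. At an FDR under 0.01 no member was lower (0 of 23) by edgeR or by DESeq2, against 22.1% of all genes in edgeR (10.0% beyond 0.5 on the log2 scale and 2.34% beyond a 2.5-fold change), while 1 member, HIST4H4, was lower at an unadjusted p under 0.05. The log2 fold change was above 0 for 20 of the 23 tested members, with a median of 0.37, and for 49.1% of all genes, with a median of -0.0087. A member could pass the filter through the group in which it was high, so these counts describe the tested members and do not speak for all 58. Total count scaling lowered the median of the members to 0.30 and left 4 higher and 1 lower. Over all genes the main scaling gave 4473 higher and 3820 lower, total count scaling 3466 and 4978, and offsets for GC content and length 5777 and 2668. DESeq2 without a prior left 4 of 23 members and 3891 of 17309 genes higher. With it and with total count scaling, the share of members higher was below that of all genes.

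**Figure D1:**
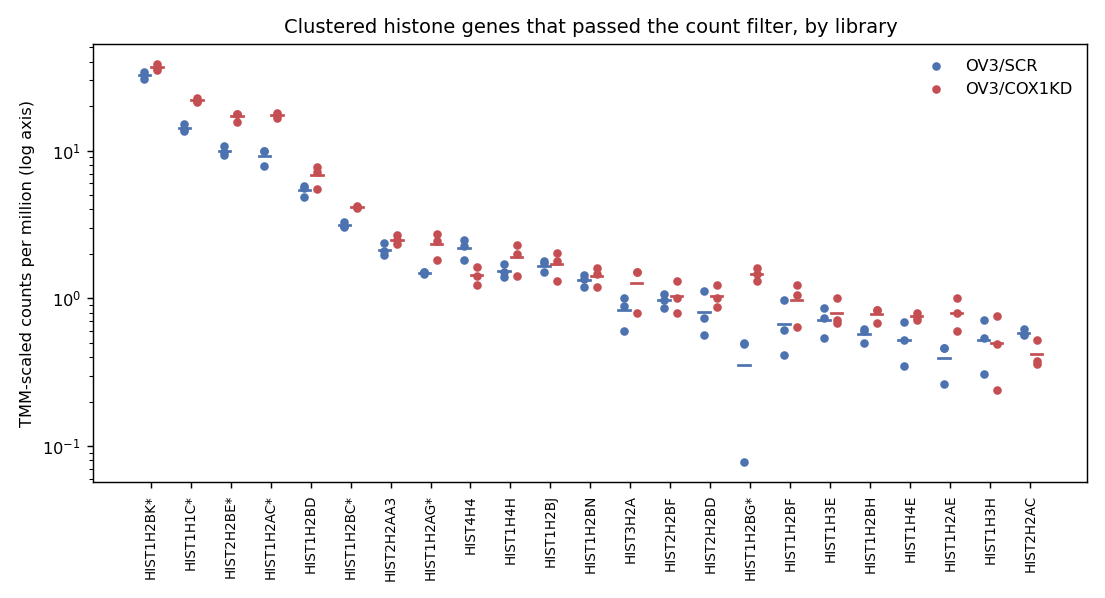
TMM-scaled CPM (log axis) of the 23 tested clustered histone genes, ordered by mean count, with 1 point per library and a bar at the mean of each group of 3. Asterisks mark the 7 genes with an edgeR FDR under 0.01. The OV3/COX1KD points of HIST1H1C, HIST2H2BE and HIST1H2AC lie above all OV3/SCR points, and those of HIST4H4 lie below.

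Among the clustered H1 genes, the only one that passed the filter was HIST1H1C, which encodes the linker histone H1.2 (ENSG00000187837, chromosome 6 of GRCh37 from 26055968 to 26056698, minus strand). It had 406, 352 and 361 counts in OV3/SCR and 569, 539 and 578 in OV3/COX1KD. All OV3/COX1KD libraries lay above all OV3/SCR libraries. HIST1H1C rose from 14.2 ± 0.892 to 21.9 ± 0.588 CPM (SD, n = 3 each), a log2 fold change of 0.62 (SE 0.063, edgeR FDR = 6.2e-08). The other 5 H1 genes, HIST1H1A, HIST1H1B, HIST1H1D, HIST1H1E and HIST1H1T, did not pass the filter and had 0 to 11 counts per library. The H1 class as a whole stood at 14.7 ± 1.09 CPM in OV3/SCR and 22.4 ± 0.543 CPM in OV3/COX1KD (SD, n = 3 each).

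The H2A genes summed to 15.5 ± 1.34 CPM in OV3/SCR and to 25.5 ± 1.09 CPM in OV3/COX1KD (SD, n = 3 each), a 1.64-fold difference with no overlap between the groups. Most of it was HIST1H2AC (ENSG00000180573, chromosome 6 from 26124373 to 26139344, plus strand), with 264, 206 and 256 counts in OV3/SCR and 440, 451 and 446 in OV3/COX1KD. HIST1H2AC rose 1.88-fold in mean CPM, with a log2 fold change of 0.91 (SE 0.082, edgeR FDR = 1.1e-08).

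HIST1H2AG (chromosome 6 from 27100822 to 27101314, plus strand), which encodes an H2A protein, had 39 counts in each control library, and in OV3/COX1KD it had 46, 61 and 73. The groups did not overlap, and the OV3/COX1KD libraries were spread more widely than the controls. HIST1H2AG rose by a log2 fold change of 0.65 (SE 0.19, edgeR FDR = 0.0063), and the FDR was 0.024 with DESeq2. Without OV3/COX1KD replicate 3 the FDR was 0.048, without OV3/SCR replicate 1, 2 or 3 it was 0.022, 0.022 and 0.020, and with total count scaling 0.014, so these settings ended the call.

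The other 4 tested H2A genes were not called. HIST1H2AE (chromosome 6 from 26217149 to 26217665, plus strand) had 7, 12 and 12 counts in OV3/SCR and 20, 25 and 16 in OV3/COX1KD, a log2 fold change of 1.00 (SE 0.33, edgeR FDR = 0.014), and it was called with no filter on low counts, with GC and length offsets and without OV3/COX1KD replicate 3. HIST2H2AA3, whose coding sequence is identical to that of H2AC19, so that reads wholly within it cannot be assigned to either gene, had 51 to 61 counts in OV3/SCR and 58 to 71 in OV3/COX1KD (log2 fold change 0.22, SE 0.16). HIST3H2A had a log2 fold change of 0.62 (SE 0.28) and HIST2H2AC one of -0.49 (SE 0.32), both with 40 or fewer counts per library.

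H2B genes held 58.8% of all member counts. Their sum was 58.0 ± 1.98 CPM in OV3/SCR and 74.0 ± 2.14 CPM in OV3/COX1KD (SD, n = 3 each). Of the 11 tested H2B genes 4 rose, beside 25.8% of all genes tested. HIST2H2BE (ENSG00000184678, chromosome 1 from 149856009 to 149858232, minus strand) had 248, 256 and 276 counts in OV3/SCR and 391, 445 and 475 in OV3/COX1KD. Each OV3/COX1KD library lay above each OV3/SCR library. HIST2H2BE rose 1.71-fold in mean CPM (log2 fold change 0.78, SE 0.078, edgeR FDR = 5.0e-08).

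The largest relative rise among the tested members was that of a scarce gene, HIST1H2BG. It had 13, 13 and 2 counts in OV3/SCR and 37, 33 and 43 in OV3/COX1KD, so 1 control library was under the floor of 3 counts. HIST1H2BG rose from 0.355 ± 0.240 to 1.47 ± 0.149 CPM (SD, n = 3 each), a log2 fold change of 2.03 (SE 0.34, edgeR FDR = 4.4e-05). Without OV3/SCR replicate 3, the library with 2 counts, the log2 fold change was 1.57 (edgeR FDR = 0.00026), and with the normal prior of DESeq2 it was 1.36. Its divergent partner HIST1H2AE, described above, was not called in the main test. Both genes were scarce in OV3/SCR and could pass the filter through OV3/COX1KD, where they were high. The direction of 1 is therefore no support for that of the other.

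The remaining H2B calls were small. HIST1H2BC (chromosome 6 from 26086545 to 26124154, minus strand), the divergent partner of HIST1H2AC, had 87, 81 and 78 counts in OV3/SCR and 106, 102 and 111 in OV3/COX1KD. The groups did not overlap, and the log2 fold change was 0.41 (SE 0.12, edgeR FDR = 0.0088). The call was lost, among other settings, with the replicate block (FDR = 0.013), with DESeq2 (0.047), with total count scaling (0.031) and without any library other than OV3/COX1KD replicate 2 (0.017 to 0.034). Other genes overlap 30.9% of its exonic bases, HFE on the facing strand among them, and whether the counting used strand is not given in the sources used here. HFE had 77, 70 and 59 counts in OV3/SCR and 38, 51 and 45 in OV3/COX1KD, and the part of overlapping reads in the values of HIST1H2BC was not tested.

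HIST1H2BK (ENSG00000197903, chromosome 6 from 27114140 to 27114634, minus strand), the most counted member, had 820, 852 and 875 counts in OV3/SCR and 973, 887 and 969 in OV3/COX1KD. The highest control count, 875, and the lowest knockdown count, 887, nearly met. HIST1H2BK rose 1.14-fold in mean CPM (log2 fold change 0.18, SE 0.051, edgeR FDR = 0.0049). The call was lost with DESeq2 (FDR = 0.020), with total count scaling (0.081), and without OV3/SCR replicate 1 (0.036), OV3/SCR replicate 2 (0.016) or OV3/COX1KD replicate 1 (0.0355). Without HIST1H2BK the summed level of the members differed by 0.55 on the log2 scale, against 0.43 with it.

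The 7 tested H2B genes that were not called were HIST1H2BD, HIST1H2BJ, HIST1H2BN, HIST2H2BF, HIST2H2BD, HIST1H2BF and HIST1H2BH. HIST1H2BD had 154, 145 and 125 counts in OV3/SCR and 138, 179 and 207 in OV3/COX1KD, with overlapping groups (log2 fold change 0.34, SE 0.12, edgeR FDR = 0.025). Without OV3/COX1KD replicate 1 its log2 fold change was 0.47 and its FDR 0.0019, and with GC and length offsets 0.53 and 0.00034. HIST1H2BJ, the partner of HIST1H2AG, had 46, 39 and 46 counts in OV3/SCR and 33, 45 and 54 in OV3/COX1KD (log2 fold change 0.041, SE 0.20, edgeR FDR = 0.87), and its sign turned with total count scaling. The other 5 had 11 to 40 counts per library and log2 fold changes between 0.099 and 0.56.

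**Figure D2:**
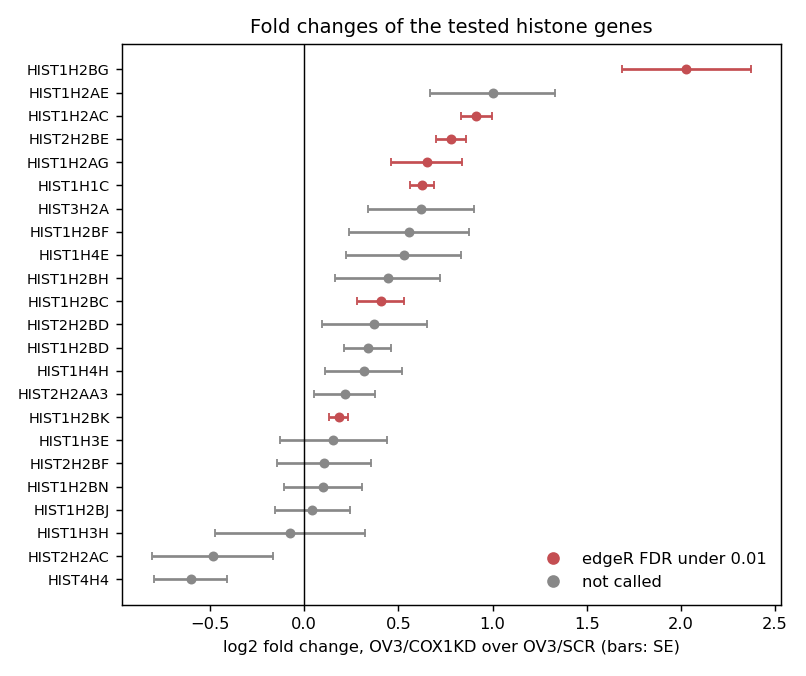
Log2 fold change (OV3/COX1KD over OV3/SCR) of the 23 tested members with bars of 1 SE, red where the edgeR FDR was under 0.01. HIST1H2BG is at 2.03, most estimates lie to the right of 0, and HIST4H4 is at -0.60.

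H3 and H4 genes, the other pair of core histones, gave 0 calls by edgeR or DESeq2 among 5 tested. In edgeR 25.8% of all genes tested were higher and 22.1% lower. Summed H3 counts were 76, 48 and 64 in OV3/SCR and 51, 75 and 56 in OV3/COX1KD, 2.39 ± 0.510 and 2.37 ± 0.538 CPM (SD, n = 3 each), with overlapping groups. Summed H4 counts were 140, 120 and 138 in OV3/SCR and 131, 134 and 111 in OV3/COX1KD, 5.07 ± 0.401 and 4.91 ± 0.645 CPM (SD, n = 3 each), again overlapping. HIST4H4 held 2.17 ± 0.341 CPM of the H4 sum in OV3/SCR and 1.43 ± 0.202 CPM in OV3/COX1KD (SD, n = 3 each). The other tested H4 genes, HIST1H4H and HIST1H4E, had positive estimates of 0.31 and 0.53 on the log2 scale, neither called. HIST1H3E and HIST1H3H had 6 to 25 counts per library, and their log2 fold changes were 0.15 (SE 0.28) and -0.077 (SE 0.40). These standard errors set what could be seen at such counts.

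HIST4H4, the single gene of the HIST4 locus (chromosome 12 from 14920933 to 14924065, minus strand), went the other way. It had 66, 47 and 58 counts in OV3/SCR and 31, 41 and 38 in OV3/COX1KD, and the groups did not overlap. Its log2 fold change was -0.60 (SE 0.19), just outside the limit (edgeR FDR = 0.0115, DESeq2 FDR = 0.039). It was called lower with total count scaling (FDR = 0.0048), with at least 10 counts required in every library (0.0083), without OV3/SCR replicate 2 (0.0083) and without OV3/COX1KD replicate 2 (0.0047). HIST1H4H had 37, 39 and 44 counts in OV3/SCR and 58, 50 and 38 in OV3/COX1KD (log2 fold change 0.31, SE 0.20), and HIST1H4E 9 to 18 against 18 to 20 (log2 fold change 0.53, SE 0.31).

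**Figure D3:**
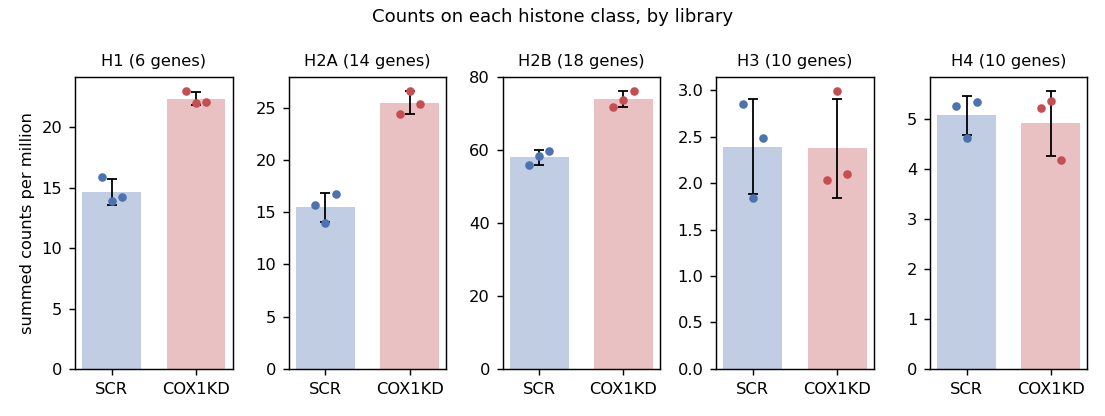
Summed TMM-scaled CPM of each histone class, each panel with its own axis from 0, with bars for the mean, lines for the SD (n = 3) and 1 point per library. The OV3/COX1KD libraries lie above the OV3/SCR libraries for H1, H2A and H2B and overlap with them for H3 and H4.

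By cluster, the HIST1 genes stood at 77.4 ± 2.5 CPM in OV3/SCR and 104 ± 0.804 CPM in OV3/COX1KD (SD, n = 3 each). The HIST2 genes stood at 15.0 ± 0.976 and 22.5 ± 1.79 CPM (SD, n = 3 each), of which HIST2H2BE was the greater part. The HIST3 genes overlapped between groups, at 0.994 ± 0.163 and 1.45 ± 0.433 CPM (SD, n = 3 each). Differences between divergent partners were not tested. HIST2H2BE rose, and HIST2H2AC, across 235 bases, was not called, with 15, 15 and 16 counts in OV3/SCR and 9, 13 and 10 in OV3/COX1KD (log2 fold change -0.49, edgeR FDR = 0.202). HIST1H2BK, with a mean of 896 counts, shares 250 bases with HIST1H2AH, which had a mean of 1 count and was not tested. Both members were called in 1 of the 4 pairs with both tested, HIST1H2BC with HIST1H2AC, where 25.8% of all genes tested were called higher. The call of HIST1H2BC was lost in 11 of 16 refits.

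Levels between genes were compared per kilobase of exon in the GENCODE models. The highest mean count per kilobase over the 6 libraries was that of HIST1H2BK, at 1810, followed by HIST1H1C at 639.5, HIST1H2AC at 206.1, HIST1H2BD at 183.5 and HIST2H2BE at 156.7. The order depends on the model, since HIST1H2BK has 495 exonic bases in GENCODE but spans 8566 bases in RefSeq. Members whose model runs on past the stem-loop (by over 100 bases in GENCODE, or with a RefSeq span over 1000 bases) numbered 17, of which 14 passed the filter, and they took 74.7% of the member counts. Their median mean count was 43.8. HIST1H2BK, with 30.8% of the member counts, and HIST1H3D were among the 17 by RefSeq span alone. The 39 members of the shorter kind had a median mean count of 2.17 and took 24.2% of the counts, and 8 of them passed the filter. Their GENCODE models end near the stem-loop, except for HIST1H2BF and HIST1H2BG. These have no GENCODE model and were placed by RefSeq spans of 473 and 489 bases alone. Longer models collect more reads, and the part of length in this difference was not tested. Of the 7 genes that rose, HIST1H2AC, HIST1H2BC, HIST1H2BK and HIST2H2BE had the longer kind and HIST1H1C, HIST1H2AG and HIST1H2BG the shorter.

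**Figure D4:**
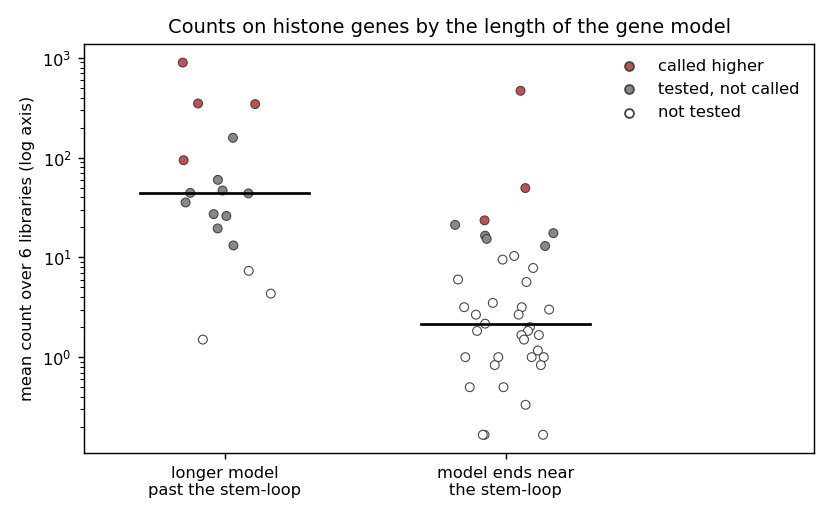
Mean count over the 6 libraries (log axis) of 17 members with a longer gene model and 39 with a shorter one, with a bar at the median (43.8 and 2.17). The longer kind runs over 100 bases past the stem-loop in GENCODE or spans over 1000 bases in RefSeq. The shorter kind ends near the stem-loop in GENCODE, except for HIST1H2BF and HIST1H2BG, which have no GENCODE model and were placed by RefSeq span. Points are red for the 7 genes called higher, grey for tested genes not called and white for genes not tested, and the 2 pseudogenes are left out.

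The 35 members that did not pass the filter comprised 5 H1, 8 H2A, 7 H2B, 8 H3 and 7 H4 genes. No count above 18 was seen for any of them, and 15 had 3 counts or fewer in all 6 libraries, so for those 15 a difference was not detectable at this depth. When all 58 members were tested by edgeR with no filter, 9 were called higher and 0 lower, none of them among these 35. In that setting 4903 of all 34811 genes were higher and 3784 lower. Together they had between 88 and 115 counts per library, 3.83 to 4.31 CPM in OV3/SCR and 3.30 to 4.23 CPM in OV3/COX1KD. The mean was higher in OV3/COX1KD for 18 of them and lower for 17. The most counted were HIST1H3G, HIST1H4I, HIST2H2BC, HIST1H2AK, HIST1H3D and HIST1H4K. HIST1H3G, an H3 gene, had 13, 9 and 18 counts in OV3/SCR and 8, 8 and 6 in OV3/COX1KD, and the groups did not overlap. HIST1H1D, with 0, 1 and 0 counts in OV3/SCR and 2, 3 and 4 in OV3/COX1KD, did not overlap in the other direction. Both were picked from the 35 for this separation, which is not a test, and neither was called with no filter. The share of all genes separated in this way is not given here. The coding sequences of HIST1H4K and HIST1H4J are identical, so reads that lie wholly within them cannot be told apart, and the split of their counts is uncertain. The others were HIST3H2BB, HIST3H3, HIST2H2AB, HIST2H3D, the 5 H1 genes named above, HIST1H2AB, HIST1H2AD, HIST1H2AH, HIST1H2AI, HIST1H2AL, HIST1H2AM, HIST1H2BE, HIST1H2BI, HIST1H2BL, HIST1H2BM, HIST1H2BO, HIST1H3A, HIST1H3B, HIST1H3F, HIST1H3J, HIST1H4A, HIST1H4B, HIST1H4C, HIST1H4D and HIST1H4J.

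Histone genes outside the clusters, many of which give polyadenylated mRNAs outside S phase too, were set beside the members. Of 11 tested, 8 were higher and 1 lower in OV3/COX1KD at an edgeR FDR under 0.01, and 4 were higher by more than 0.5 on the log2 scale, where 25.8% of all genes were higher, 22.1% lower and 9.87% higher by more than 0.5. H1F0, the linker histone variant H1.0 typical of differentiated cells, had 4465, 4166 and 4105 counts in OV3/SCR and 7701, 7699 and 8376 in OV3/COX1KD (log2 fold change 0.93, SE 0.031, edgeR FDR = 3.7e-15). H2AFV, an H2A.Z gene, had a log2 fold change of 0.61 (SE 0.033), H3F3A, an H3.3 gene, of 0.55 (SE 0.034) and H2AFY2, a macroH2A gene, of 0.53 (SE 0.041). H2AFJ, which encodes the variant H2A.J, was lower (log2 fold change -0.32, SE 0.060). The summed level of the list was 1630 to 1660 CPM in OV3/SCR and 2060 to 2070 CPM in OV3/COX1KD.

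Of the 19 factors of histone gene transcription and 3′ end processing, all tested, 3 were higher and 6 lower in OV3/COX1KD, none by more than 0.5 on the log2 scale, with a median of -0.013, beside 25.8% of all genes higher and 22.1% lower. SLBP, the stem-loop binding protein, had 3149, 2929 and 3053 counts in OV3/SCR and 2250, 2245 and 2425 in OV3/COX1KD (log2 fold change -0.37, SE 0.034, edgeR FDR = 1.7e-08). CSTF2, a cleavage stimulation factor subunit, had a log2 fold change of -0.40 (SE 0.046). NPAT, the cyclin E-CDK2 substrate that activates histone transcription, was also lower (-0.29, SE 0.054), and POU2F1, which encodes OCT1, was higher (0.34, SE 0.065). With GC and length offsets 5 of these genes were higher in place of 3, and over all genes those offsets raised the calls from 4473 to 5777 higher and cut them from 3820 to 2668 lower.

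Among 24 histone chaperones and their partners, all tested, 3 were higher and 11 lower, with a median log2 fold change of -0.093, beside the same 25.8% and 22.1% of all genes. The largest falls were those of UBN2, a subunit of the HIRA complex (log2 fold change -0.48, SE 0.055), and TONSL, which binds newly made histones (-0.47, SE 0.033). Of the CAF-1 subunits, CHAF1A (-0.41, SE 0.041) and CHAF1B (-0.35, SE 0.050) fell as well, whereas RBBP4, which other chromatin complexes share, rose (0.17, SE 0.034). ANP32E, an H2A.Z chaperone, rose (0.46, SE 0.031). With GC and length offsets the counts were 6 higher and 7 lower, a move in the direction of that over all genes.

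Of 10 genes of S phase entry, all tested, 1 was higher and 4 lower, with a median log2 fold change of -0.011, again beside 25.8% and 22.1% of all genes. E2F1, a transcription factor of the G1 to S transition, had 3349, 3289 and 3252 counts in OV3/SCR and 2513, 2550 and 2607 in OV3/COX1KD (log2 fold change -0.33, SE 0.032, edgeR FDR = 3.0e-08). CDC25A, a phosphatase that activates CDK2, had a log2 fold change of -0.24 (SE 0.057, edgeR FDR = 0.0015), and its call was lost with GC and length offsets (FDR = 0.058), with DESeq2 and no filter (0.014) and without OV3/SCR replicate 1 (0.016) or OV3/SCR replicate 2 (0.0106). PCNA, the sliding clamp of replication, was lower (-0.23, SE 0.033), and CCNA2, cyclin A2, was higher (0.14, SE 0.032). With GC and length offsets the counts turned to 4 higher and 1 lower, with all genes shifting the same way.

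**Figure D5:**
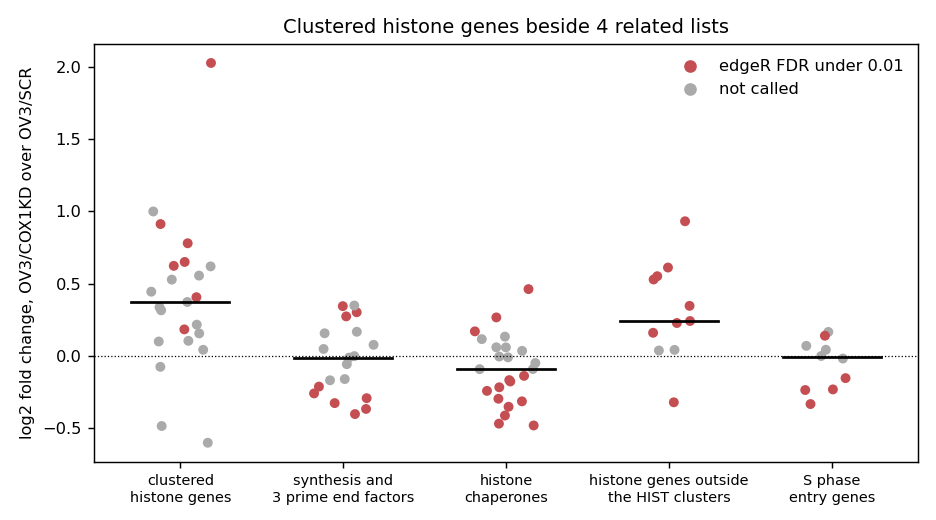
Log2 fold change (OV3/COX1KD over OV3/SCR) of the tested genes among the clustered histone genes and the 4 related lists, red where the edgeR FDR was under 0.01, with a bar at each median. The medians of the clustered histone genes (0.37) and of the histone genes outside the clusters (0.24) lie above 0, and those of the factors (-0.013), the chaperones (-0.093) and the S phase genes (-0.011) lie close to 0 or below it.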

How the data were processed

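RNA-seq libraries of OV3/SCR and OV3/COX1KD cells (3 each) were compared. Per the labels and the methods of the study, the authors used TopHat2 2.0 for alignment to hg19 and HTSeq for counting. The deposited values are raw counts per gene. The annotation and strand setting are not given in the sources used here, and no column was left unused.

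Of the 34811 genes, the 17309 that passed filterByExpr were tested with edgeR 4.0.16 under R 4.3.3 (TMM, glmQLFit and glmQLFTest, Benjamini-Hochberg adjustment over the 17309 genes). The SE was the log2 fold change divided by the square root of F. DESeq2 1.42.0, other scalings and filters, GC and length offsets, the replicate block and each library left out in turn were alternatives. DESeq2 with no filter, glmTreat and an FDR of 0.05 were chosen after seeing the data. Scripts were tested on simulated data.

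The members and gene lists were chosen with earlier results of these data known. Named were all called members, the 5 with most counts per kilobase, the 5 most counted tested members not called, and of each list the called genes beyond 0.5 on the log2 scale or the 2 with the largest change. HIST1H2AE, NPAT, POU2F1, CHAF1A, CHAF1B, RBBP4, ANP32E, PCNA, CCNA2, H2AFJ and the markers with fold changes were named after their values were seen. Gene models came from GENCODE 44 lifted to GRCh37, 34 members by ID and 22 through RefSeq synonyms. HIST1H2BF and HIST1H2BG had none. RefSeq promoters were those of GRCh38.p14. The limit that parts long from short models was set after the annotation was seen.

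Library totals lay between 25291505 and 27391538 counts. Libraries of 1 group differed by more than sampling noise (chi-square per degree of freedom 1.74 to 5.74).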

Additional observations from a re-analysis of the deposited data

How the results depend on the processing

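HIST1H1C, HIST1H2AC and HIST2H2BE were called higher in all 16 refits at an FDR under 0.01, and HIST1H2BG in all 13 in which it was tested against no change (it fell outside a minimum of 10 counts in every library and has no gene model for GC offsets). The count of members higher, 7 in the main test, was 4 with total count scaling, 4 with DESeq2 without or with its prior, 4 with DESeq2 and no filter, 4 to 7 with each library left out, 1 with a fold change above 2.5 as a limit and 0 with glmTreat against that fold change, in which 1 member had an unadjusted p under 0.05. It was 9 with no filter on low counts, where 4903 of 34811 genes were higher, and 5 without members whose exons overlap another gene. Beside the 4 of 23 members, 3466 of 17309 genes were higher with total count scaling and 3891 with DESeq2 without a prior. In both settings the share of members was below that of all genes. With each library left out, 3963 to 4852 of all genes were higher. The count of members lower, 0 in the main test, was 1 with total count scaling, 1 with at least 10 counts in every library, 0 to 1 with each library left out, and 1 at an FDR under 0.05, HIST4H4 each time. The cause of these moves was not tested.

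The labels speak of 3 replicate pairs without saying what a pair shared. Same-numbered libraries deviated together with a correlation across genes of 0.0045 to 0.042, so the numbers were not taken to pair the samples. With the replicate block 6 members were higher and 0 lower, and all genes gave 4437 higher and 3796 lower calls. With the block and GC and length offsets together 8 members were higher.

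With GC and length offsets, without and with the replicate block, factors higher went from 3 to 5 and 5, chaperones higher from 3 to 6 and 7, chaperones lower from 11 to 7 and 7, S phase genes higher from 1 to 4 and 4, and S phase genes lower from 4 to 1 and 1. S phase genes higher were 0 with total count scaling and 1 to 3 with each library left out (3 without OV3/COX1KD replicate 2). S phase genes lower were 2 with DESeq2 and no filter and 2 to 4 with each library left out (2 without OV3/SCR replicate 2). Histone genes outside the clusters kept their counts within 1.5 times under all alternatives.

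The summed level of the members differed by 0.43 on the log2 scale, by 0.36 on total counts and by 0.55 without HIST1H2BK. HIST1H2BJ turned to -0.036 with total count scaling and lay between -0.10 and 0.20 with each library left out. The H3 sum, at -0.0096, lay between -0.211 and 0.137 and the H4 sum, at -0.046, between -0.112 and 0.0589 with each library left out. Low counts kept 35 members out of the main test.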
